A study of Oryza sativa Japonica Group with 12 samples.

Results

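Calcium sensors and the kinases they act through were followed in crown root (CR) primordia of rice and in the stem cortex around them. The genes were those whose symbol or synonym in the RefSeq gene table is a numbered CaM (calmodulin), CML (calmodulin-like protein), CBL (calcineurin B-like protein), CIPK (CBL-interacting protein kinase) or CPK (calcium-dependent protein kinase, also written CDPK). Of 92 such genes in the table, 89 had a probe set of a single gene on the array, out of 24160 genes measured in all. They were 3 CaM, 25 CML, 8 CBL, 29 CIPK and 24 CPK genes. No probe set of a single gene was found in the annotation for CIPK11, CBL7 and CML17, which were not analysed here. Names are given below without the prefix Os.

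A brief rise of calcium in the cytosol is one of the first events after many signals in plant cells, and it is read by proteins that bind calcium through EF-hand motifs. Calmodulins and CMLs have no enzyme activity of their own and work by binding other proteins. CBLs also lack it and bring CIPKs, a plant family of kinases, to a membrane, where the pairs phosphorylate channels and transporters. CPKs carry the calcium-binding part and the kinase in a single protein.

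The plants were wild-type *Oryza sativa* ssp. *Japonica*, cultivar Taichung 65, grown for 5 days in dishes and 3 days in flasks and sampled 8 days after sowing. From 15 µm sections of the stem base, CR primordia at an early, an intermediate and a late stage and cortex tissue beside them were cut out with a laser, and RNA was hybridized to a rice gene array. There were 3 arrays for each of the 4 groups, 12 in all, and each RNA pooled 2 of 6 stem bases, so that single primordia and single plants cannot be told apart. The cortex came from the same sections and served as the reference for all 3 stages, which therefore share their control arrays. In such bulk samples, fewer cells of a type and less RNA per cell cannot be told apart.

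Values are log2 signals per probe set, so that a difference of 1 is a change of 2 times. Probe sets differ in brightness, and a level is therefore compared between arrays only, not between genes. A gene is said to have risen or fallen where its limma p, adjusted by Benjamini and Hochberg over the 24160 genes, was under 0.05 and its fold change was at least 1.5, which is 0.58 on the log2 scale. The threshold of the study's methods, an unadjusted p under 0.01 with the same fold change, is given beside it.

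Some features of the arrays touch the results. The 98th percentile of the signals was 6.94 to 7.22 on the 9 primordium arrays, against 6.80 on cortex replicate 1 and 6.25 and 6.29 on cortex replicates 2 and 3. Bright probe sets were thus dimmer on the last 2 cortex arrays. The median signal ran the other way, at 3.00 and 2.98 on cortex replicates 2 and 3, against 2.86 to 2.92 on the other arrays. The list of 4 matched green tissue markers averaged 2.32 to 2.60 in primordia and 3.53 to 5.05 in cortex. Of these markers 2, CAB1R and CAB2R, fell in early, intermediate and late primordia alike. The list of 8 markers of dividing cells averaged 4.14 to 4.66 on 8 primordium arrays and 3.61 to 3.80 in cortex, while late replicate 3 was at 3.74. Of these 8 markers, 4 rose over the 9 primordium arrays averaged. The 4 matched root primordium and meristem markers averaged 4.09 to 4.44 in early primordia and 3.33 to 3.95 in intermediate ones. They averaged 3.24 to 3.65 in late primordia, against 3.45 to 3.69 in cortex. Over the 9 arrays 1 of them, SCR1, rose and 1, WOX11, fell. The part of these differences in the results below was not tested.

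All 89 genes were tested, with no filter on low values. Most were dim, with 38 of them above the median gene, which was at 2.91, and 5 of them, CaM1, CaM2, CaM3, CML10 and CIPK15, with a mean above 6. In early primordia 1 gene fell and 0 rose, that is 1.12% of the 89 genes against 2.65% of all genes, of which 0.952% fell and 1.7% rose. In intermediate primordia 3 rose and 2 fell, or 5.62% against 5.72% of all genes (3.21% rose and 2.51% fell). In late primordia 1 rose and 3 fell, or 4.49% against 3.25% (1.61% rose and 1.64% fell). These shares lie near those of all genes and are no result about the families as a whole. Between the stages 0 of the 89 genes passed, as did 0.0% of all genes in each of the 3 comparisons, while at an unadjusted p under 0.05 5 genes passed in intermediate minus early, 4 in late minus intermediate and 12 in late minus early, against 3.14%, 2.48% and 6.2% of all genes.

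With the 9 primordium arrays averaged, 3 genes rose and 7 fell against cortex, or 11.2% against 9.32% of all genes (5.56% rose and 3.75% fell). The split depended on the scaling, since 1 gene rose and 9 fell after another quantile normalization, and 59.7% of the calls over all genes were higher on the deposited values but 40.6% after that step. With each array centred on its median instead, 3 genes rose and 5 fell, and 68.9% of the calls over all genes were higher. At the study's threshold 5, 12 and 11 genes passed in early, intermediate and late primordia, where 7.02%, 9.79% and 7.82% of all genes did. The 3 arrays of a stage lay wholly above or below the cortex arrays for 21, 31 and 31 of the 89 genes, against 24.0%, 31.6% and 27.4% of all genes. The median change of the 89 genes was -0.16, -0.12 and -0.11 in the 3 stages, against -0.03, -0.03 and -0.02 over all genes. In all, 12 of the 89 genes (13.5%) passed in at least 1 comparison, against 10.4% of all genes, and 1 of them (CML29, 1.12%) passed in all 3 stages, against 1.4%. For 47 genes (52.8%, against 52.6% of all genes) no stage passed either threshold, and no stage lay wholly above or below the cortex arrays.

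**Figure D1:**
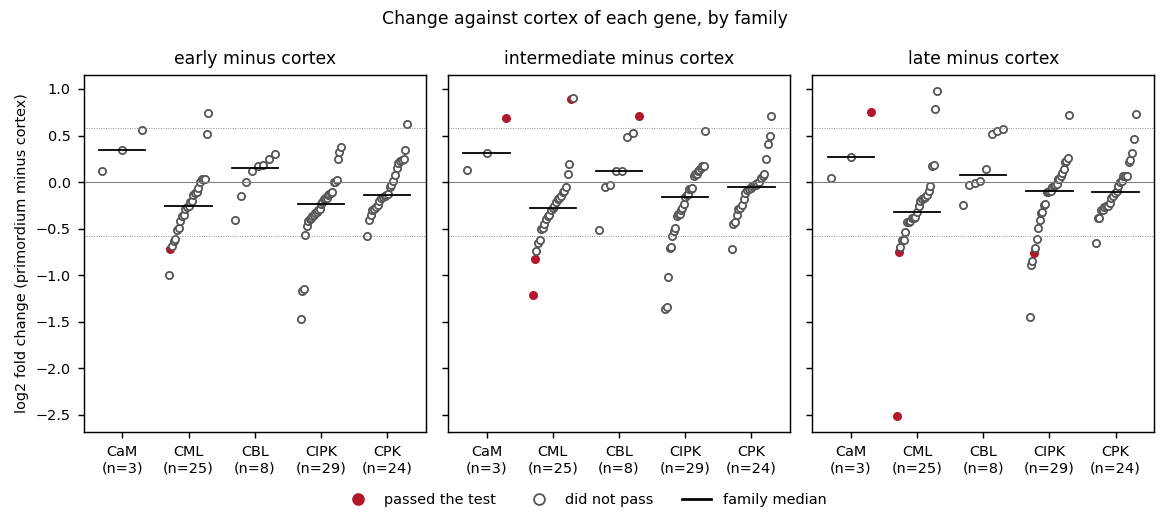
Log2 fold change of each of the 89 genes in early, intermediate and late primordia against cortex, one point per gene, grouped by family and sorted within it, with a black bar at the family median and dotted lines at a fold change of 1.5. Red points passed the test (1, 5 and 4 genes), and CML10 in late primordia, at -2.52, lies below every other point.

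By family, the median change of the 9 primordium arrays against cortex was 0.23 for the 3 CaM, -0.24 for the 25 CML, 0.10 for the 8 CBL, -0.25 for the 29 CIPK and -0.07 for the 24 CPK genes, beside -0.03 for all genes. The signs of single genes were uneven as well. Of the CML genes 21 had a negative and 4 a positive value, of the CIPK genes 21 and 8, of the CPK genes 16 and 8, of the CBL genes 2 and 6 and of the CaM genes 0 and 3, where 12912 of all genes had a negative and 11248 a positive one. Calls were made for 1 of 3 CaM, 5 of 25 CML (20.0%), 0 of 8 CBL, 2 of 29 CIPK (6.9%) and 2 of 24 CPK genes (8.33%), where 9.32% of all genes were called. The signs of the CaM genes turned negative after another quantile normalization. Beside the 0 calls of the CBL genes, 3 of the 8 had an unadjusted p under 0.05 in this comparison, as did 32.1% of all genes.

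Among the sensors without a kinase, CML10 (LOC4325762, chromosome 1) had the largest change. Its signal was 6.72, 7.19 and 7.02 in early, 5.97, 5.98 and 6.42 in intermediate and 4.71, 5.06 and 4.69 in late primordia, against 6.73, 8.12 and 7.16 in cortex. The early arrays overlapped with cortex, the intermediate and late arrays all lay below it, and the 3 stages did not overlap with each other. In late primordia CML10 fell by 2.52 (SE 0.30, adjusted p = 0.00545), a fold change of 5.73, and in intermediate primordia by 1.21 (SE 0.30, adjusted p = 0.0452). The early difference was -0.36 (adjusted p = 0.526).

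The late call was kept with each of the 12 arrays left out in turn, at -2.82 to -2.12 and an adjusted p of at most 0.0349. Against cortex replicate 1 alone the late value was -1.91. In that fit, here and below, 1 array stands for cortex and the spread comes from the primordium groups only, so that its p-values hold no measure of the variation of cortex. With only the 6 late and cortex arrays fitted, its adjusted p was 0.110, and with all 4 arrays of replicate number 2 or 3 left out it was at most 0.152. The intermediate call was kept in 1 of 12 such fits, that without cortex replicate 1. Its adjusted p reached 0.155 without intermediate replicate 1, and against cortex replicate 1 alone the change was -0.60.

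Between the stages themselves CML10 was 2.16 lower in late than in early primordia (SE 0.30, unadjusted p = 2.51e-05, adjusted p = 0.124), which was rank 4 of all genes by p. No gene of the array passed the adjusted test between stages, and the lowest adjusted p of late minus early was 0.124. Since the stages did not overlap, any pairing of arrays gives the same order. By replicate number, late minus early differences were -2.01, -2.13 and -2.33 and late minus intermediate differences -1.26, -0.92 and -1.73. The late minus early difference of CML10 passed in 4 of 24 alternative fits, those with only the 6 arrays compared (adjusted p = 0.0278), with array weights (0.0137), with cortex replicate 1 as the only cortex array (0.0300) and without cortex replicate 2 (0.0198). In the other 20 its adjusted p was 0.0622 to 1.00, with 0.398 after another quantile normalization, 0.451 without early replicate 2, 0.484 without late replicate 2 and 0.588 without late replicate 3, while the difference itself lay at -2.29 to -2.05 in all 24.

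**Figure D2:**
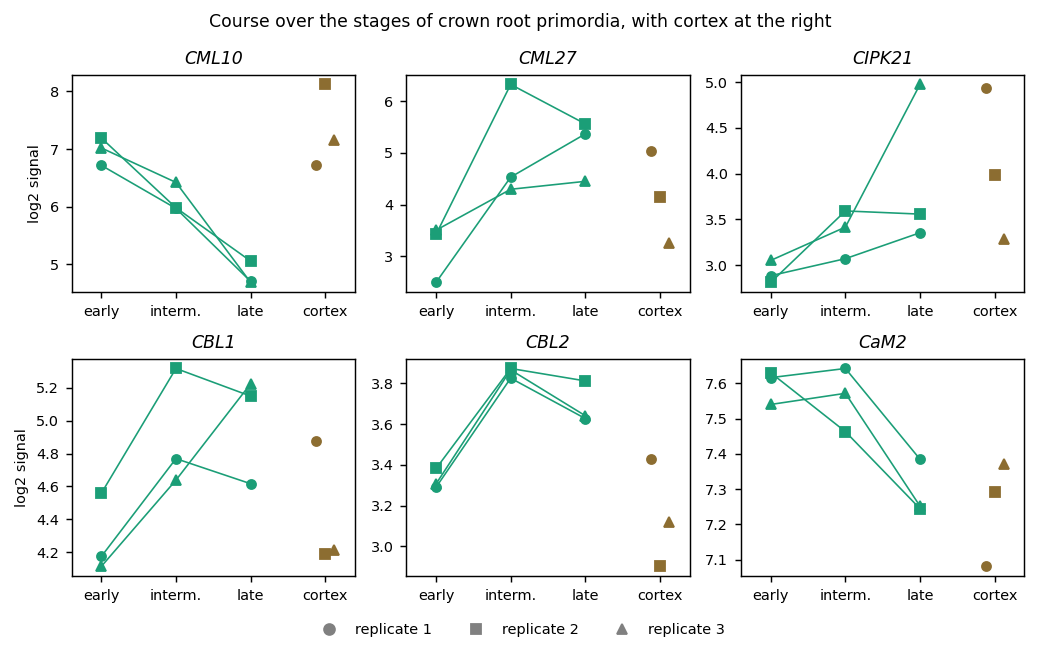
Log2 signal of 6 genes in early, intermediate and late primordia, with lines joining arrays of the same replicate number, and in cortex at the right. CML10 goes down at each step in all 3 replicates, CML27, CIPK21, CBL1 and CBL2 are higher in late than in early primordia in all 3, and CaM2 is lower.

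CML27 (LOC4332731, chromosome 3) ran the other way along the stages. It was at 2.50, 3.43 and 3.51 in early, 4.53, 6.32 and 4.30 in intermediate and 5.37, 5.56 and 4.45 in late primordia, against 5.03, 4.15 and 3.26 in cortex. All intermediate and late arrays lay above all early arrays, while cortex overlapped with each stage. The late minus early difference was 1.98 (SE 0.59, unadjusted p = 0.00661, adjusted p = 0.603), and intermediate minus early was 1.91 (unadjusted p = 0.00826, adjusted p = 0.999). CML10 and CML27 were the 2 of 89 genes past the study's threshold in late minus early, which 1.11% of all genes passed, CML27 the 1 past it in intermediate minus early (0.232% of all genes), and CML10 and CIPK29 the 2 past it in late minus intermediate (0.132%). CML18 also varied widely, from 4.34 to 6.14 in early, 5.19 to 6.67 in intermediate and 5.63 to 6.61 in late primordia and 5.52 to 6.73 in cortex, but the groups overlapped throughout.

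CML29 (LOC4341908, chromosome 6) was the one gene called in every stage. Its probe set was dim, at 2.14 to 2.46 on the 9 primordium arrays against 2.74, 3.30 and 3.02 in cortex, and all 9 lay below all 3 cortex arrays. CML29 fell by 0.72 in early (adjusted p = 0.0329), by 0.82 in intermediate (0.0202) and by 0.75 in late primordia (0.0309), with an SE of 0.15 each. Over the 9 primordium arrays it fell by 0.77 (SE 0.12, adjusted p = 0.0065), and this call was kept with each array left out, at -0.91 to -0.62. All 3 calls of single stages were lost without cortex replicate 2 or intermediate replicate 2. The early call was also lost without cortex replicate 3 or any early array (adjusted p up to 0.121), the intermediate call without intermediate replicate 1 (up to 0.0898), and the late call without cortex replicate 3, early replicate 3 or any late array (up to 0.123).

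CML13 (LOC4343922, chromosome 7) was higher in primordia. It was at 3.51, 3.61 and 3.48 in early, 4.08, 3.83 and 3.15 in intermediate and 3.60, 3.79 and 3.35 in late primordia, against 3.11, 2.76 and 2.52 in cortex. All 9 primordium arrays lay above the highest cortex array, intermediate replicate 3 by the least. CML13 rose in intermediate primordia by 0.89 (SE 0.23, adjusted p = 0.0495) and over the 9 arrays by 0.80 (SE 0.19, adjusted p = 0.0248). The intermediate call was kept in 2 of 12 fits with 1 array left out, those without cortex replicate 1 and without intermediate replicate 3, and the call over all primordia was lost without cortex replicate 2 or 3 (adjusted p up to 0.105, at 0.67).

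CML1 and CML24 fell over the 9 primordium arrays without passing in a single stage. CML1 (LOC4327351) ranged over 2.73 to 3.17 in primordia against 3.75, 3.77 and 3.17 in cortex, so that cortex replicate 3 reached the primordia, and the change was -0.64 (SE 0.15, adjusted p = 0.0243). CML24 (LOC4344304) ranged over 2.53 to 2.83 against 2.82, 3.29 and 3.80, so that here cortex replicate 1 reached them, and the change was -0.66 (SE 0.17, adjusted p = 0.0301). With 1 array left out, the CML1 call was lost without cortex replicate 1 or 2 (adjusted p up to 0.123, at -0.84 to -0.54 over the 12 fits). The CML24 call was kept in 4 of the 12, those without cortex replicate 1, early replicate 1, intermediate replicate 3 or late replicate 3 (adjusted p up to 0.112, at -0.91 to -0.41). With all arrays kept, the CML1 call was also lost with array weights and with median centring, where the change fell short of the fold change asked.

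Of the CML genes without a call, CML20 had its early arrays at 3.23, 3.47 and 3.09, all above cortex at 2.71, 2.73 and 2.80. The early change was 0.52 (SE 0.13, adjusted p = 0.0574), against 0.20 in intermediate and 0.18 in late primordia. CML7, one of the 3 brightest CML probe sets, was at 4.94, 4.62 and 4.71 in late and 5.27, 5.22 and 5.16 in early primordia, which do not overlap (late minus early -0.46, unadjusted p = 0.0146, adjusted p = 0.657). Late arrays of 6 CML genes lay apart from the early ones, or 24.0% of the family against 15.0% of all genes.

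**Figure D3:**
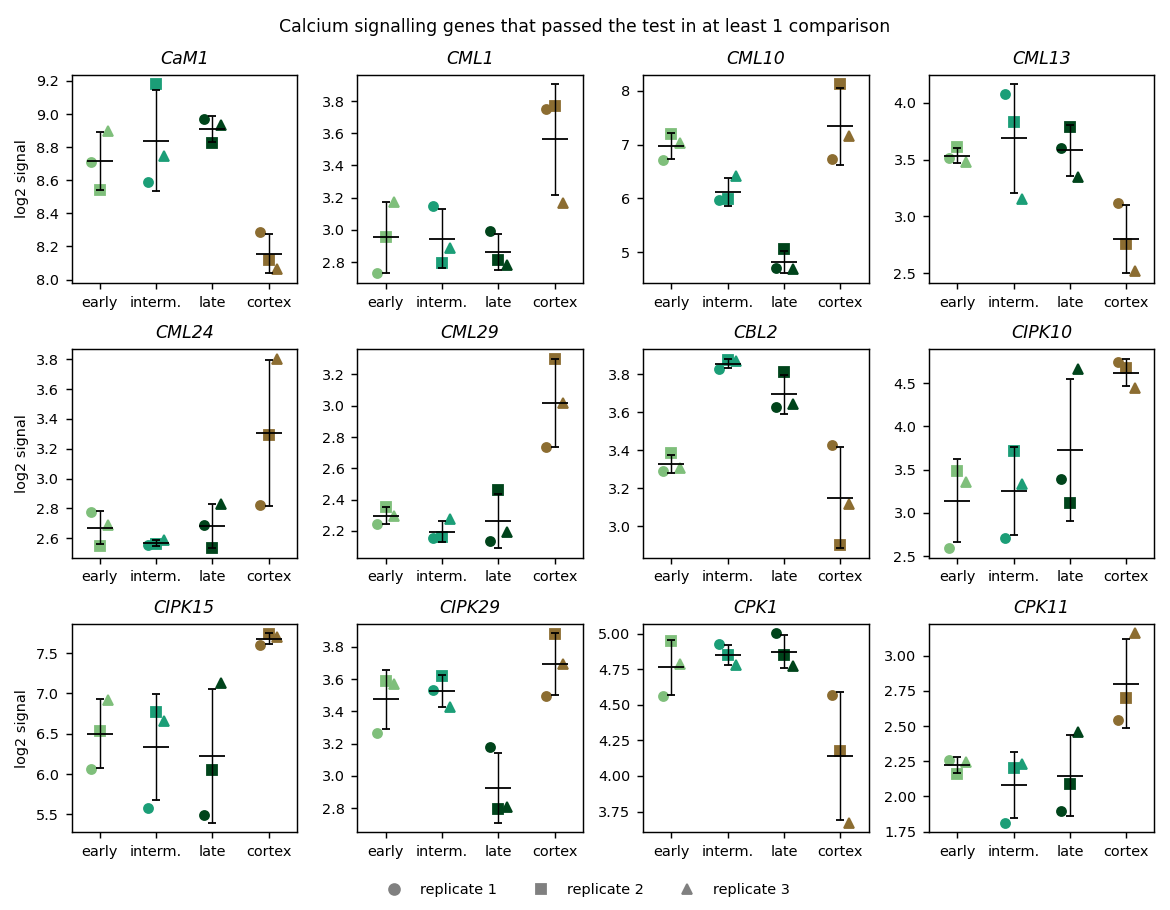
Log2 signal on each of the 12 arrays for the 12 genes that passed the test in at least 1 comparison, with early, intermediate and late primordia left of cortex, symbols for the replicate number, and a horizontal bar at the group mean with its SD (n = 3). Each panel has its own signal axis, which does not start at 0. CML29 and CIPK15 show all 9 primordium arrays below cortex, CaM1 and CML13 all 9 above it, and CML10 a stepwise lower signal from early to late. The CaM1 difference has the opposite sign after another quantile normalization.

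Calmodulin itself was read by 3 bright probe sets, for CaM1 (one entry of the gene table for CAM1-1, CAM1-2 and CAM1-3), CaM2 and CaM3. Rice calmodulin genes are near-identical in sequence, and how far the probe sets tell them apart was not tested. CaM1 (LOC4324384) was at 8.71, 8.54 and 8.90 in early, 8.59, 9.18 and 8.74 in intermediate and 8.97, 8.82 and 8.93 in late primordia, against 8.29, 8.12 and 8.06 in cortex, with all 9 primordium arrays above the cortex arrays. CaM1 rose by 0.68 in intermediate (SE 0.16, adjusted p = 0.0371) and by 0.76 in late primordia (SE 0.16, adjusted p = 0.0377), and over the 9 arrays by 0.67 (SE 0.13, adjusted p = 0.0133). With the replicate number as a block the intermediate and late calls were lost (adjusted p = 0.0567 and 0.0561).

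The direction of the calmodulin genes depended on the scaling. CaM1 differed from cortex by -0.35 in intermediate, -0.34 in late and -0.35 over all primordia after the values were quantile normalized again, a step that lifts the dimmer bright signals of cortex replicates 2 and 3 (adjusted p = 0.378, 0.416 and 0.259). It was 0.53 above cortex replicate 1 alone. With 1 array left out, the intermediate call was kept in the 3 fits without cortex replicate 1 or early replicate 1 or 2 (adjusted p up to 0.106), and the late call in the 4 without cortex replicate 1, early replicate 1 or intermediate replicate 1 or 2 (up to 0.134). The call over all primordia was lost without cortex replicate 2 or 3 (adjusted p up to 0.0621). CaM3 differed by 0.17 (adjusted p = 0.436) on the deposited values and by -0.77 (adjusted p = 0.0239) after quantile normalization, and CaM2 by 0.23 (adjusted p = 0.105) and -0.72 (adjusted p = 0.0596).

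Between stages, CaM2 was at 7.38, 7.24 and 7.25 in late primordia, against 7.62, 7.63 and 7.54 in early ones. The groups did not overlap, and the difference was -0.30 (SE 0.11, 95% interval -0.55 to -0.06, unadjusted p = 0.0200, adjusted p = 0.700).

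**Figure D4:**
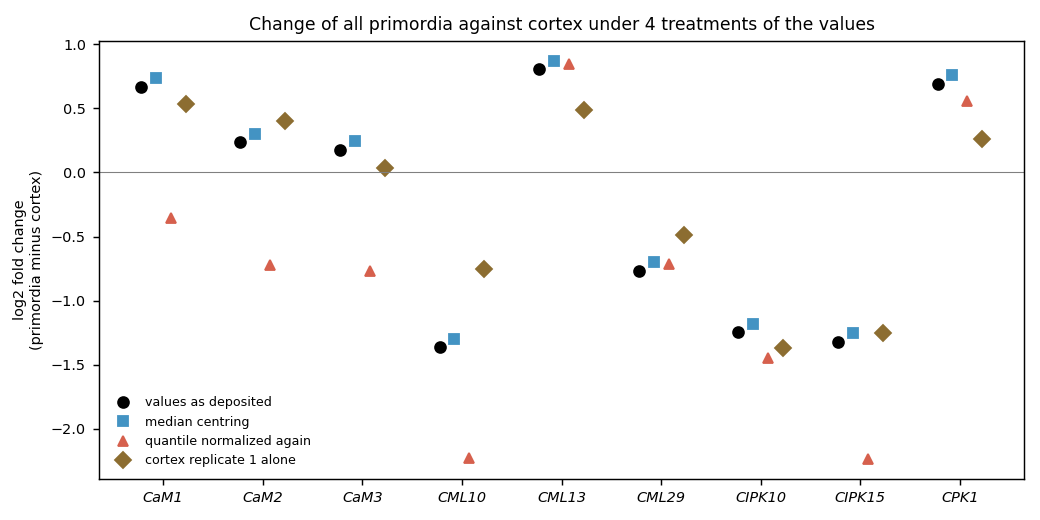
Log2 fold change of all 9 primordium arrays against cortex for 9 genes, with the values as deposited, centred on each array's median, quantile normalized again, or set against cortex replicate 1 alone. CaM1, CaM2 and CaM3 lie above 0 in 3 of the treatments and below it after quantile normalization, where CML10 (-2.23) and CIPK15 (-2.23) lie farther below 0, while CML13 and CML29 keep their sign in all 4.

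Of the CBL sensors, which pair with CIPKs, CBL2 (LOC4352701, chromosome 12) passed in 1 stage. Its relative in Arabidopsis sits at the membrane of the vacuole. CBL2 was at 3.29, 3.38 and 3.31 in early, 3.83, 3.87 and 3.87 in intermediate and 3.63, 3.81 and 3.64 in late primordia, against 3.43, 2.90 and 3.12 in cortex. The intermediate and late arrays lay above all cortex and all early arrays, while the early arrays overlapped with cortex. CBL2 rose by 0.71 in intermediate primordia (SE 0.13, adjusted p = 0.0218), and was 0.54 higher in late (adjusted p = 0.0521) and 0.18 higher in early primordia (adjusted p = 0.476). The intermediate call was kept in 8 of 12 fits with 1 array left out, and lost without cortex replicate 2 or 3 or intermediate replicate 1 or 2 (adjusted p up to 0.0898, at 0.58 to 0.85). Against cortex replicate 1 alone CBL2 did not pass in intermediate primordia.

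CBL1, whose rice protein recruits CIPK23 to the potassium channel AKT1, followed a like course without a call. It was at 4.17, 4.56 and 4.11 in early, 4.77, 5.32 and 4.64 in intermediate and 4.62, 5.15 and 5.22 in late primordia, against 4.88, 4.19 and 4.21 in cortex. Late minus early was 0.72 (95% interval 0.15 to 1.28, unadjusted p = 0.0172, adjusted p = 0.672), and all late arrays lay above all early ones. CBL10 was lower in primordia, at 2.25 to 2.84 against 2.72, 3.18 and 2.95 in cortex, and its change of -0.39 (adjusted p = 0.0476) fell short of the fold change asked.

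No call was made for the salt tolerance pair. CBL4 and CIPK24 correspond to SOS3 and SOS2 of Arabidopsis, which activate a sodium exporter of the plasma membrane. CBL4 differed from cortex by 0.07 over all primordia (95% interval -0.19 to 0.34) and CIPK24 by 0.02 (95% interval -0.32 to 0.37), so that neither interval reaches a fold change of 1.5. CBL3, the other relative of the vacuolar sensor, differed by -0.01 (95% interval -0.29 to 0.26). CBL6 was 0.45 higher than cortex (adjusted p = 0.132), with cortex replicate 3 at 2.73 apart from the other 11 arrays at 3.54 to 3.99.

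Among the CIPK kinases the brightest probe set, CIPK15 (LOC4349594, chromosome 11), was lower in primordia. In rice this kinase is known to link lack of oxygen to the sugar starvation response in flooded seedlings. CIPK15 was at 6.06, 6.53 and 6.92 in early, 5.58, 6.77 and 6.66 in intermediate and 5.50, 6.05 and 7.12 in late primordia, against 7.60, 7.73 and 7.69 in cortex. The primordium arrays spread widely within a stage, yet all 9 lay below the cortex arrays. Over the 9 arrays CIPK15 fell by 1.32 (SE 0.34, adjusted p = 0.0315), a fold change of 2.50, while the single stages gave -1.17 (adjusted p = 0.145), -1.34 (0.0733) and -1.45 (0.0771).

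With the replicate block, CIPK15 also fell in intermediate (adjusted p = 0.0338) and late primordia (0.0363), and in late primordia it was 1.90 lower than in cortex without late replicate 3 (adjusted p = 0.0490). The call over all primordia was lost without early replicate 2, late replicate 2 or either of cortex replicates 2 and 3 (adjusted p up to 0.125, at -1.47 to -1.20 over the 12 fits). Array weights also lost this call of CIPK15. Its close copy in rice, CIPK14, was at 2.23 to 2.44 in primordia and at 2.43, 1.92 and 2.74 in cortex (change -0.07, adjusted p = 0.778), and how far the 2 probe sets tell the copies apart was not tested.

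CIPK10 (LOC4332786, chromosome 3) fell by 1.25 over the 9 arrays (SE 0.32, adjusted p = 0.0332). It was at 2.59, 3.48 and 3.35 in early, 2.71, 3.71 and 3.33 in intermediate and 3.39, 3.12 and 4.66 in late primordia, against 4.75, 4.67 and 4.44 in cortex. All early and intermediate arrays lay below cortex, whereas late replicate 3 was within the cortex range. The stages gave -1.48 (adjusted p = 0.0733), -1.37 (0.063) and -0.89 (0.198), and the late value was -1.36 without late replicate 3 (adjusted p = 0.0740). The call was kept in 6 of 12 fits with 1 array left out and was lost without any one of the cortex arrays, early replicate 3, intermediate replicate 1 or late replicate 1. Array weights lost it as well.

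CIPK29 (LOC4344285, chromosome 7) was low in the late stage. Late primordia were at 3.18, 2.80 and 2.81 and cortex at 3.50, 3.88 and 3.70, while early and intermediate primordia lay at 3.26 to 3.62. CIPK29 fell by 0.76 in late primordia (SE 0.15, adjusted p = 0.0324), and late minus intermediate was -0.60 (unadjusted p = 0.00252, adjusted p = 1.00). The late call was kept in 5 of 12 fits with 1 array left out (adjusted p up to 0.105, at -0.89 to -0.67), and lost without cortex replicate 2 or 3, early replicate 3, intermediate replicate 2 or any late array. CIPK29 is the neighbour of CIPK2 in the gene table, and CIPK2 was 0.55 higher in primordia than in cortex (adjusted p = 0.185), where CIPK29 was 0.38 lower (adjusted p = 0.0673).

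CIPK21 was lowest in the early stage, at 2.89, 2.81 and 3.05 against 4.93, 3.99 and 3.29 in cortex (change -1.15, adjusted p = 0.179). It was at 3.36, 3.56 and 4.97 in late primordia, and the late minus early difference of 1.04 (unadjusted p = 0.0414, adjusted p = 0.779) was 0.54 without late replicate 3. CIPK18 was at 2.81, 2.28 and 2.77 in late primordia, below cortex at 3.18, 3.19 and 4.02 (change -0.85, adjusted p = 0.0878), and CIPK26 at 2.50 to 2.75 in early primordia, above cortex at 2.30, 2.47 and 2.39 (change 0.25, adjusted p = 0.230). CIPK27 ranged from 4.93 to 6.68 in primordia and from 6.09 to 6.90 in cortex, a change of -0.76 (adjusted p = 0.119). CIPK23, the kinase of AKT1, was dim and lay below cortex on all 9 arrays, at 2.38 to 2.68 against 2.71, 2.86 and 2.69, with a change of -0.25 (adjusted p = 0.0612).

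The CPK kinases, which need no separate sensor, gave 2 calls. CPK1 (LOC4326638, chromosome 1) was at 4.56, 4.95 and 4.78 in early, 4.93, 4.85 and 4.78 in intermediate and 5.00, 4.85 and 4.77 in late primordia, against 4.57, 4.18 and 3.67 in cortex. Cortex replicate 1 was level with early replicate 1, and the other arrays did not overlap. CPK1 rose by 0.69 over the 9 arrays (SE 0.16, adjusted p = 0.0245), with 0.63, 0.71 and 0.74 in the 3 stages (adjusted p = 0.112, 0.0579 and 0.068).

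The call of CPK1 was lost without cortex replicate 2 (adjusted p = 0.089) or 3, where the change was as low as 0.46, and the change was 0.26 against cortex replicate 1 alone. After another quantile normalization it was 0.56, under the fold change asked (adjusted p = 0.0485).

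CPK11 (LOC4334371, chromosome 3) fell by 0.65 (SE 0.16, adjusted p = 0.027). It was dim, at 1.81 to 2.46 in primordia against 2.55, 2.70 and 3.16 in cortex, with all 9 arrays below, and the call was lost without cortex replicate 2 or 3 (adjusted p up to 0.112, at -0.47). Median centring lost this call as well, since the change there fell short of the fold change asked. With the replicate block CPK11 also fell in intermediate primordia (-0.72, adjusted p = 0.0325, against 0.0524 without the block). CPK13 and CPK24 were, after CPK1, the brightest CPK probe sets. CPK24, which acts in cold tolerance in rice, differed from cortex by -0.24 (95% interval -0.67 to 0.18) and CPK13 by -0.22 (95% interval -0.50 to 0.07), and their groups overlapped.

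Over all 9 primordium arrays, 3 of the 89 genes lay above every cortex array (CaM1, CML13 and CPK3) and 7 below (CML4, CML29, CIPK15, CIPK23, CIPK31, CPK7 and CPK11), or 11.2% against 10.5% of all genes (5.55% above and 4.98% below). CPK3, at 2.70 to 3.13 against 2.49, 2.46 and 2.51 in cortex, had a change of 0.31 (adjusted p = 0.051). CPK7 had one of -0.24 (adjusted p = 0.134).

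A further list of 27 held genes of calcium signalling and transport together with genes related to them. The former were calcium pumps and exchangers, a channel, an NADPH oxidase, calreticulin and the calcium- and calmodulin-dependent kinase DMI3. The latter were potassium transporters and the SnRK2 kinases (SAPK), which were taken in as relatives of the CIPKs. In this list 1 gene fell in early and 1 in intermediate primordia, both SAPK4, and 1 rose over all primordia, the calreticulin CRT1, or 3.7% in each, against 2.65%, 5.72% and 9.32% of all genes. SAPK4 was at 2.59, 2.57 and 2.50 in early and 2.42, 2.82 and 2.52 in intermediate primordia, against 3.10, 3.32 and 3.22 in cortex, with changes of -0.66 (adjusted p = 0.042) and -0.62 (adjusted p = 0.0367). CRT1, which binds calcium in the endoplasmic reticulum, rose by 0.81 (SE 0.21, adjusted p = 0.0333), at 5.78 to 6.83 in primordia against 5.82, 5.40 and 5.51 in cortex.

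The calcium pump gene ACA8 was at 7.09 to 7.96 on the 9 primordium arrays, against 7.81, 2.73 and 5.08 in cortex. Cortex replicate 1 was thus level with the primordia, and the change of 2.36 (SE 0.75) did not pass (adjusted p = 0.0614). AKT1 differed by -0.18 (adjusted p = 0.304).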

How the data were processed

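RNA of laser-cut tissue was hybridized to Gene Rice (Jp) 1.1 ST arrays (Affymetrix), 3 per group. The values deposited by the authors are normalized log2 signals, 1 for each probe set on each array. The study's methods name Robust Multi-array Average (Transcriptome Analysis Console) as the normalization, whereas the submitters' processing notes list GCRMA and the Affymetrix Expression Console, and it stayed unknown which was used. Probe intensities were not used here, and precision is limited by having 3 arrays per group.

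Of 36643 probe sets, 24161 carried 1 gene in the platform annotation, 90 several and 12392 none. Names came from the RefSeq gene table (assembly ASM3414082v1), in which all 24160 genes were found, and each gene was read by its probe set with the highest mean. No sequence was used, and gene start coordinates served only to order genes along a chromosome where neighbours are named. The genes and lists were chosen with earlier results of these data known.

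Group means were fitted to the 12 arrays with limma 3.58.1 in R 4.3.3 (lmFit and eBayes, prior degrees of freedom 2.55, prior variance 0.0446), with contrasts of each stage and of their mean with cortex and between stages, and Benjamini-Hochberg adjustment over the 24160 genes. P-values are two-sided and come from this fit unless an alternative fit or an array left out is named with them. Intervals are 95% intervals of the log2 changes of the main fit. The fit was first tested on simulated data. The genes named were those called in any comparison, the 3 brightest of each family and the 5 with the largest late minus early difference. Up to 5 per stage and direction whose arrays lay beyond all cortex arrays were added. CIPK15, CIPK23, CIPK24, CBL1, CBL2, CBL3, CBL4 and CBL10 were named as well, with called genes of the further list of 27. CIPK14, CIPK31, CML4, CPK3, CPK7, ACA8 and AKT1 were named after their values were seen.

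The labels number the biological repetitions, and in the study each repetition was a pair of stem bases, with cortex cut from the same sections. Whether the same number in different groups marks the same pair is not stated. Over genes' deviations from group means, 18 same-numbered pairs of arrays correlated at -0.315 to 0.355 (mean 0.0510, 7 above 0.1) and 36 others at a mean of -0.0258. The block was run as an alternative, since the study's test names none. Other alternatives were fits of only the 6 arrays compared, genes above the median mean only, array weights, quantile normalization again, an intensity trend in the prior, median centring, cortex replicate 1 alone, adjustment over all probe sets, and leaving out each array or each replicate number.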

Additional observations from a re-analysis of the deposited data

How the results depend on the processing

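Of the 20 calls made on the 89 genes, 18 were kept with the replicate block, which made 6 calls in intermediate primordia against 5 without it, lost CaM1 in intermediate and late primordia, and added CIPK15 in both and CPK11 in intermediate primordia. All 20 were kept when all probe sets were adjusted for, 18 with median centring, 17 with array weights, and 15 each with an intensity trend or another quantile normalization. After that normalization CaM1 was at -0.35 in intermediate, -0.34 in late and -0.35 over all primordia, and CaM3 at -0.77 over all primordia. The cause was not tested. Median centring lost CML1 and CPK11 over all primordia, at an adjusted p of 0.0336 to 0.0405 but under the fold change asked. Array weights lost CML1, CIPK10 and CIPK15 over all primordia, at an adjusted p of 0.0759 to 0.0889.

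The number of genes called in early primordia was 4 with array weights, 0 with only the 6 arrays compared or against cortex replicate 1 alone, and 5 at the study's threshold, against 1. In intermediate primordia it was 10 with array weights, 8 among genes above the median mean and 3 with an intensity trend, against 5. It was 0 there with 6 arrays and 12 at the study's threshold. No count over all genes is given here for the intermediate fits with array weights, above the median mean or with an intensity trend. Whether the number called in those fits followed that of all genes was not tested. In late primordia the number of genes called was 0 with 6 arrays and 11 at the study's threshold, against 4. Over all primordia it was 0 against cortex replicate 1 alone, against 10. Late minus early had 1 call with 6 arrays, with array weights and against cortex replicate 1 alone, and 2 at the study's threshold, against 0, where intermediate minus early had 1 and late minus intermediate 2.

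With an array or a replicate number left out, the calls ranged from 0 to 5 in early, 0 to 16 in intermediate and 0 to 15 in late primordia, 0 to 1 in late minus early and 0 to 14 over all primordia. The highest counts against cortex came without cortex replicate 1. Over all genes the calls of the same fits ranged from 0 to 2336 in early, 0 to 3633 in intermediate and 0 to 2971 in late primordia, 0 to 1 in late minus early and 21 to 3758 over all primordia, those against cortex again highest without cortex replicate 1. Without replicate 2 or replicate 3, which leaves 2 arrays per group, 0 of the 20 calls were kept, and without cortex replicate 2 or 3 alone 3 and 5 were. Over all genes 2251 were called over all primordia and 182 against cortex replicate 1 alone, with 785 in late primordia and 113. With only the 6 arrays compared, 2, 2 and 1 of all genes were called in early, intermediate and late primordia, against 641, 1382 and 785, and with array weights 1338 in early and 1180 in late primordia. Calls over all genes that were higher made up 64.1%, 56.2% and 49.4% in early, intermediate and late primordia, but 48.4%, 37.3% and 32.6% after another quantile normalization, and 70.5%, 67.1% and 56.3% with median centring.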
